A study of Homo sapiens with 4 samples.

Results

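The genes described here are 10 members of the pericellular proteolysis system: the matrix metalloproteinases MMP1, MMP3, MMP9, MMP10 and MMP14, the tissue inhibitors of metalloproteinases TIMP1, TIMP2 and TIMP3, the urokinase-type plasminogen activator PLAU and its receptor PLAUR. They were found by Ensembl identifier in a table of 60617 Ensembl genes, and all 10 were found. The table gives messenger RNA levels in T24 and 5637, established lines from human urinary bladder carcinomas, grown in RPMI medium with serum. Protodioscin is a steroidal saponin of plants. The 4 groups were T24 cells given 60 µM protodioscin for 6 h, untreated T24 cells, 5637 cells given 70 µM protodioscin for 6 h and untreated 5637 cells. Each group had 1 library, so a difference within a line has no replicate check and no p-value. Doses are given here in micromolar, as in the sample titles, although the protocol writes them in millimolar. No vehicle is named for the untreated cells.

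Matrix metalloproteinases are zinc enzymes that cut collagens, laminins, fibronectin and other proteins of the extracellular matrix. They are made with a propeptide that keeps the zinc site closed until it is cut off, and TIMPs bind and block the open site. Urokinase, held at the cell surface by its receptor, cuts plasminogen to plasmin, which degrades fibrin and can activate several metalloproteinases. In carcinomas of the bladder and of other organs these genes are studied for their part in invasion, and many of them respond to AP-1 and ETS transcription factors downstream of growth factor signalling.

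MMP1, MMP10 and MMP3 are neighbours on chromosome 11 and close relatives, so it matters that reads can tell them apart. The stretches shown are the 33 coding bases of the zinc-binding site in the 5 metalloproteinases, read from GENCODE 29 transcripts, 5′ to 3′, with capitals for the 18 positions that hold the same base in all 5.
MMP1: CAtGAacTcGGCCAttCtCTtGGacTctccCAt
MMP10: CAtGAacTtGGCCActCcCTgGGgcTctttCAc
MMP3: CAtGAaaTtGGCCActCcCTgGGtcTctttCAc
MMP9: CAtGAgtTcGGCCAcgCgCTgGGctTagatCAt
MMP14: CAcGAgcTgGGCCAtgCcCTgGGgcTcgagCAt
MMP1, MMP10 and MMP3 had the same base at 24 of these 33 positions. Over the aligned bases of their reading frames, MMP10 and MMP3 were 85.0% identical, MMP1 and MMP3 70.2% and MMP1 and MMP10 67.2%. The longest run of bases shared by an MMP1 transcript with one of MMP10 or MMP3 was 18 bases. MMP10 and MMP3 shared a run of 96 bases, shorter than the 150-base reads.

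Levels are in FPKM, a fragment count divided by transcript length and by library size, so genes can be set side by side within a library. The libraries had 11941 to 12405 genes at 1 FPKM or more, and relative depths of 1.28 in treated T24, 1.19 in treated 5637 and 1.43 in untreated 5637, set against 1 in untreated T24. Of 11 urothelial and epithelial markers, 7 were at 1 FPKM or more in T24 and 11 in 5637. In T24, KRT5, KRT6A, CDH1 and TP63 were at 0 to 0.0681 FPKM. The summed level of the 11 markers was 1632 FPKM in treated and 2031 FPKM in untreated T24, and 4332 FPKM in treated and 5067 FPKM in untreated 5637, and its part in the results was not tested. The summed levels of 7 fibroblast markers were 1.08 to 8.06 FPKM, with DCN and LUM at 0 in all 4 libraries, and those of 4 endothelial markers 0.123 to 1.98 FPKM. Those of 5 immune markers were 11.4 FPKM in treated and 7.85 FPKM in untreated T24, and 1.89 FPKM in treated and 1.74 FPKM in untreated 5637, most of it CD68, while PTPRC was at 0.00533 FPKM or less.

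The lines differed far more than the treated and untreated libraries did. MMP1 was among the most abundant transcripts of 5637 and at about 3 FPKM in T24, MMP10, PLAU, PLAUR, TIMP2, MMP14 and TIMP3 were also lower in T24, and TIMP1 was higher in T24. After protodioscin, none of the 8 genes that reached 1 FPKM in a library differed by 2-fold in either line. The largest differences were lower TIMP3, MMP10 and MMP1 in 5637 and lower PLAU and TIMP3 in T24. In bulk RNA, fewer cells with a transcript and less transcript per cell cannot be told apart.

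**Figure D1:**
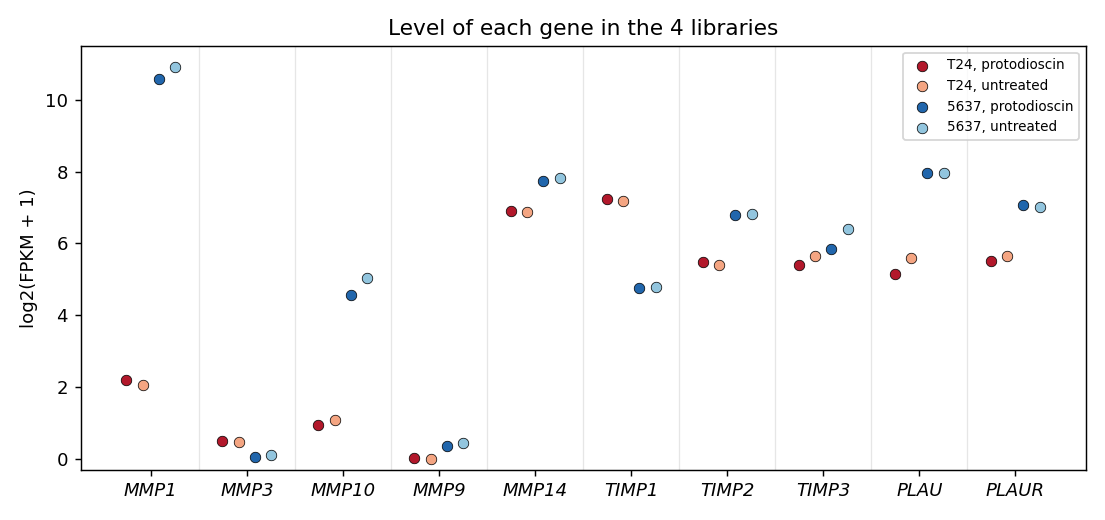
Level of each of the 10 genes in the 4 libraries, as log2(FPKM + 1), with 1 point per library. MMP1, MMP10, PLAU, PLAUR, TIMP2, MMP14 and TIMP3 are lower in both T24 libraries than in both 5637 libraries, TIMP1 is higher in T24, and the 2 points of a line lie close together.

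MMP1 is the interstitial collagenase, which makes the first cut in fibrillar collagens (ENSG00000196611, chromosome 11, 102789920 to 102798160 on GRCh38, minus strand). It was at 3.55 FPKM in treated and 3.17 FPKM in untreated T24, and at 1530 FPKM in treated and 1912 FPKM in untreated 5637. Its mean level in 5637 was 512 times that in T24. In untreated 5637 it ranked 11 among all genes by FPKM and held 0.565% of the library's sum, and in treated 5637 it ranked 18 with 0.439%. The difference between treated and untreated cells was 0.13 on the log2(FPKM + 1) scale in T24 and -0.32 in 5637, where 504 of the 12635 genes compared (3.99%) were as low or lower. By the value of 1 read, which the spacing of the lowest FPKM gives, MMP1 had about 365 reads in treated and 254 in untreated T24. The counting interval of the log2 ratio in T24 was -0.16 to 0.49, so a change of the size seen in T24 was not detectable at this depth. In 5637 it had about 145805 reads treated and 219785 untreated, and the interval was -0.34 to -0.31. Both intervals are 95% and cover counting error only, with a larger variance than these read numbers alone would give.

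MMP10 and MMP3 are stromelysins, which cut proteoglycans, laminin and fibronectin and can activate procollagenases. MMP10 (ENSG00000166670, chromosome 11, 102770503 to 102780628, minus strand) was at 0.927 FPKM in treated and 1.10 FPKM in untreated T24, and at 22.5 FPKM in treated and 32.1 FPKM in untreated 5637. The level was 26.9 times as high in 5637 as in T24, and within 5637 the treated library differed from the untreated one by -30.0%. That is -0.50 on the log2 scale, and 146 genes (1.16%) were as low or lower. In T24 the difference was -0.13. MMP3 (ENSG00000149968, chromosome 11, 102835801 to 102843803, minus strand) was at 0.413 FPKM in treated and 0.376 FPKM in untreated T24, and at 0.0471 FPKM in treated and 0.0763 FPKM in untreated 5637. MMP3 lay below 1 FPKM in every library and, unlike MMP1 and MMP10, was higher in both T24 libraries than in both 5637 libraries.

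MMP1, MMP10 and MMP3 lie in a row of 9 metalloproteinase genes that spans 435 kb of chromosome 11, all on the minus strand. MMP10 ends 9291 bases before MMP1 begins on the reference, and MMP1 lies 37640 bases from MMP3. Only 3 of the 9 reached 1 FPKM in any library, MMP1, MMP10 and MMP13. MMP20, MMP27 and MMP8, on the other side of MMP10, were at 0 in all 4 libraries. MMP13, another collagenase, ran the other way from MMP1, at 2.33 FPKM in treated and 2.35 FPKM in untreated T24 and at 0.0907 FPKM in treated and 0.0540 FPKM in untreated 5637. MMP12 stayed at or below 0.0842 FPKM and MMP7 at or below 0.642 FPKM. The pseudogene WTAPP1, which shares exon positions with MMP1 and MMP3 on the opposite strand, was at 0.657 FPKM or less, and libraries without strand cannot separate its reads.

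MMP9, the larger gelatinase, which cuts denatured collagen and basement membrane collagen (ENSG00000100985, chromosome 20, 46008908 to 46016561, plus strand), was below 1 FPKM in every library. It was at 0.0246 FPKM in treated T24 and listed at 0 in untreated T24, and at 0.279 FPKM in treated and 0.348 FPKM in untreated 5637. This is about 3 reads in treated T24, and about 31.5 reads in treated and 47.4 in untreated 5637. The counting interval of its log2 ratio in 5637 was -1.24 to 0.60, so a change of the size seen was not detectable at this depth.

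MMP14 is a membrane-bound metalloproteinase that cuts collagen at the cell surface and, with TIMP2 as an adaptor, activates the gelatinase MMP2 (MMP14 is ENSG00000157227, chromosome 14, 22836557 to 22849027, plus strand). MMP14 was at 119 FPKM in treated and 116 FPKM in untreated T24, and at 211 FPKM in treated and 225 FPKM in untreated 5637. It was the only one of the 5 metalloproteinases above 4 FPKM in T24. It made up 96.0% of the summed FPKM of the 5 metalloproteinases in treated and 96.2% in untreated T24, but 11.98% in treated and 10.4% in untreated 5637, where MMP1 made up 86.7% and 88.1%. MMP2, which is not one of the 10, was at 2.496 FPKM in treated and 2.49 FPKM in untreated T24 and at 51.9 FPKM in treated and 59.3 FPKM in untreated 5637.

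**Figure D2:**
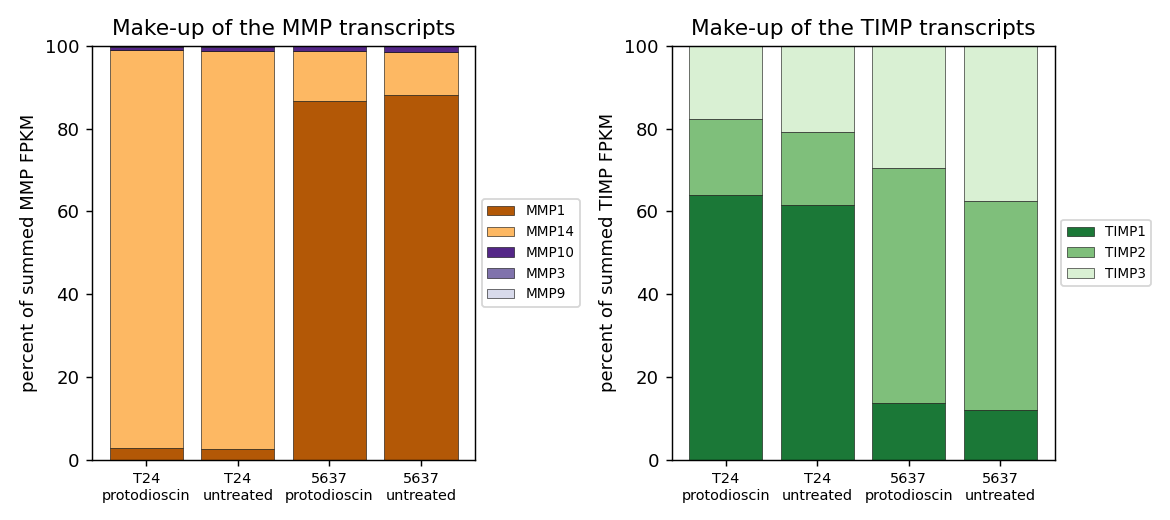
Share of each gene in the summed FPKM of the 5 metalloproteinases (left) and of the 3 TIMPs (right), in percent, for each library. MMP14 fills 96.0% and 96.2% of the metalloproteinase sum in treated and untreated T24, MMP1 fills 86.7% and 88.1% in treated and untreated 5637, and TIMP1 is the largest TIMP in T24 while TIMP2 is the largest in 5637.

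The inhibitors did not share 1 pattern. TIMP1, a soluble inhibitor of most metalloproteinases (ENSG00000102265, chromosome X, 47582313 to 47586789, plus strand), was at 150 FPKM in treated and 144 FPKM in untreated T24, and at 26.2 FPKM in treated and 26.5 FPKM in untreated 5637. It was the only one of the 10 above 1 FPKM whose level was higher in T24, 5.58 times that in 5637. TIMP2, which both inhibits metalloproteinases and serves MMP2 activation (ENSG00000035862, chromosome 17, 78852977 to 78925387, minus strand), was at 43.4 FPKM in treated and 41.5 FPKM in untreated T24, and at 109 FPKM in treated and 113 FPKM in untreated 5637. TIMP2 shares exon positions on its own strand with CEP295NL, which was at 0.213 FPKM or less. TIMP3 binds the matrix and also inhibits ADAM proteases (ENSG00000100234, chromosome 22, 32801701 to 32863043, plus strand). It was at 41.4 FPKM in treated and 49.0 FPKM in untreated T24, and at 56.7 FPKM in treated and 83.1 FPKM in untreated 5637.

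The treatment difference of TIMP3 was -0.24 in T24, where 1128 of 12193 genes (9.25%) were as low or lower, and -0.54 in 5637, where 109 genes (0.863%) were. In 5637 this was the lowest difference of the 10 genes. The counting intervals of the log2 ratio, which cover counting error only, were -0.30 to -0.19 in T24 and -0.60 to -0.51 in 5637. TIMP1 and TIMP2 were close to their untreated values in each line. Their differences were 0.05 and 0.06 in T24, and -0.02 and -0.04 in 5637. TIMP3 thus made up 17.6% of the summed TIMP level in treated and 20.9% in untreated T24, and 29.5% in treated and 37.4% in untreated 5637.

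Set within each library, the balance of proteinases and inhibitors differed between the lines. The summed FPKM of the 5 metalloproteinases was 0.528 times that of the 3 TIMPs in treated and 0.515 times in untreated T24, and 9.17 times in treated and 9.76 times in untreated 5637. TIMP1 was 42.2 times MMP1 in treated and 45.5 times in untreated T24, whereas MMP1 was 58.3 times TIMP1 in treated and 72.1 times in untreated 5637. The MMP14 to TIMP2 ratio differed less, at 2.74 in treated and 2.80 in untreated T24 and at 1.93 in treated and 1.996 in untreated 5637.

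PLAU, urokinase (ENSG00000122861, chromosome 10, 73909177 to 73917497, plus strand), was at 34.2 FPKM in treated and 47.1 FPKM in untreated T24, and at 248 FPKM in treated and 250 FPKM in untreated 5637. It was 6.13 times as high in 5637 as in T24. In T24 the treated library differed from the untreated one by -27.4%, a log2 difference of -0.45, and 335 genes (2.75%) were as low or lower there. In 5637 the difference was -0.01. C10orf55, which shares exon positions with PLAU on the opposite strand, was at 0.233 FPKM in treated and 0.324 FPKM in untreated T24, and at 1.21 FPKM in treated and 0.883 FPKM in untreated 5637.

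PLAUR, the GPI-anchored urokinase receptor (ENSG00000011422, chromosome 19, 43646095 to 43670547, minus strand), was at 44.8 FPKM in treated and 49.2 FPKM in untreated T24, and at 132 FPKM in treated and 129 FPKM in untreated 5637. Its differences were -0.13 in T24 and 0.04 in 5637, and the 5637 difference lay on the other side of 0 with TPM scaling (-0.0029) and with median-ratio scaling (-0.023). PLAU stood at 0.762 times PLAUR in treated and 0.957 times in untreated T24, and at 1.88 times in treated and 1.94 times in untreated 5637.

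**Figure D3:**
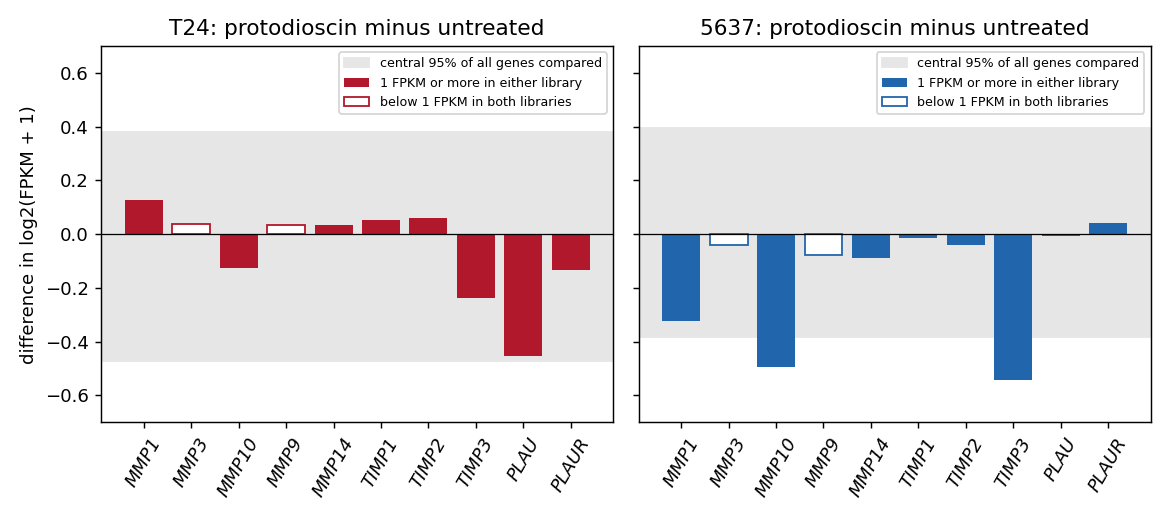
Protodioscin minus untreated difference in log2(FPKM + 1) for each of the 10 genes, in T24 (left) and in 5637 (right). Bars are single differences between 2 libraries, open bars are genes below 1 FPKM in both libraries, and the grey band holds the central 95% of all genes compared; MMP10 and TIMP3 lie below the band in 5637, and no bar lies outside it in T24.

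In each line 8 of the 10 genes, all but MMP3 and MMP9, had 1 FPKM or more in the treated or the untreated library and were compared. In T24, 4 of the 8 were below 0, beside 44.0% of all 12193 genes compared, and 4 were above 0, beside 56.0%. In 5637, 7 of the 8 were below 0, beside 38.5% of all 12635 genes, and 1 was above 0, beside 61.5%. MMP10, TIMP3 and PLAU, 3 of the 8, were below 0 in both lines, beside 19.8% of the 11417 genes compared in both. Of these, MMP10 in T24 (-0.13) had levels near 1 FPKM, and PLAU in 5637 was at -0.01. The median of the 8 was -0.05 in T24, beside 0.02 over all genes, and -0.06 in 5637, beside 0.04 over all genes. TIMP3 in 5637 was the only one that was lower by 0.5 or more, a size that 2.23% of genes passed downward in T24 and 1.11% in 5637. MMP10 in 5637 lay just inside that limit at -0.50, and was past it with a pseudocount of 0.1 (-0.51), with TPM scaling (-0.55), with median-ratio scaling (-0.56) and with quantile scaling (-0.51). No member was higher by 0.5 or more, as were 1.03% of genes in T24 and 1.01% in 5637. No member was 2-fold lower, as were 0.279% of genes in T24 and 0.214% in 5637, or 2-fold higher, as were 0.205% and 0.174%.

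Over both lines, the treatment effect was tested with limma in a model of treatment and line fitted to the 4 libraries, over the 12893 genes that had 1 FPKM or more in 2 libraries or more. MMP3 and MMP9 did not pass this filter. limma called 0 genes at an adjusted p below 0.05 (0% of genes), and so none of the 8 members. At an unadjusted p below 0.05 it had 1227 genes (9.52%), and 508 (3.94%) were lower with treatment. TIMP3 and MMP10 were among the lower ones. TIMP3 had a coefficient of -0.39 (SE 0.086, limma adjusted p = 0.48). MMP10 had a coefficient of -0.31 (SE 0.12, limma adjusted p = 0.51). Both were lower in treated cells in 2 of 2 lines. For MMP10 in T24 this rested on 0.927 FPKM in treated and 1.10 FPKM in untreated cells, near the filter, with no counting interval. Over the alternatives tried, the limma adjusted p ranged between 0.35 and 0.999993 for TIMP3 and between 0.44 and 0.999993 for MMP10. PLAU had a coefficient of -0.23 (SE 0.11) and MMP1 one of -0.098 (SE 0.11), with limma adjusted p of 0.54 and 0.78. The spread in this fit is how the responses of the lines differ at their different doses, with 1 residual degree of freedom, so the difference between the lines' responses cannot itself be tested.

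The difference between the lines was tested in the same fit. All 8 members were called at an adjusted p below 0.05, beside 68.9% of the 12893 genes. MMP10 was below 1 FPKM in treated T24, and the other 7 were above it in all 4 libraries. Of the 8, 7 were lower in T24 and 1 was higher, beside 33.9% and 35.1% of all genes. By 1 or more on the log2 scale, MMP1, MMP10, PLAU, PLAUR and TIMP2 were lower in T24, a size and direction that 10.8% of genes had, and TIMP1 was higher, as were 8.09%. The T24 minus 5637 coefficients were -8.62 for MMP1 (SE 0.11, limma adjusted p = 2.6e-07), -3.79 for MMP10 (SE 0.12), -2.60 for PLAU (SE 0.11), -1.45 for PLAUR (SE 0.068) and -1.37 for TIMP2 (SE 0.062). MMP14 and TIMP3 were closer, at -0.88 (SE 0.063) and -0.60 (SE 0.086, limma adjusted p = 0.0013). TIMP1 was at 2.44 (SE 0.061, limma adjusted p = 1.9e-06). The 2 libraries of T24 and those of 5637 did not overlap for any of the 8, as for 83.3% of all genes tested. The labels do not say whether the treated and untreated cells came from separate cultures. These p-values are set against how the responses of the lines differ, pooled over genes, and not against a spread between replicate cultures. That difference may be technical.

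**Figure D4:**
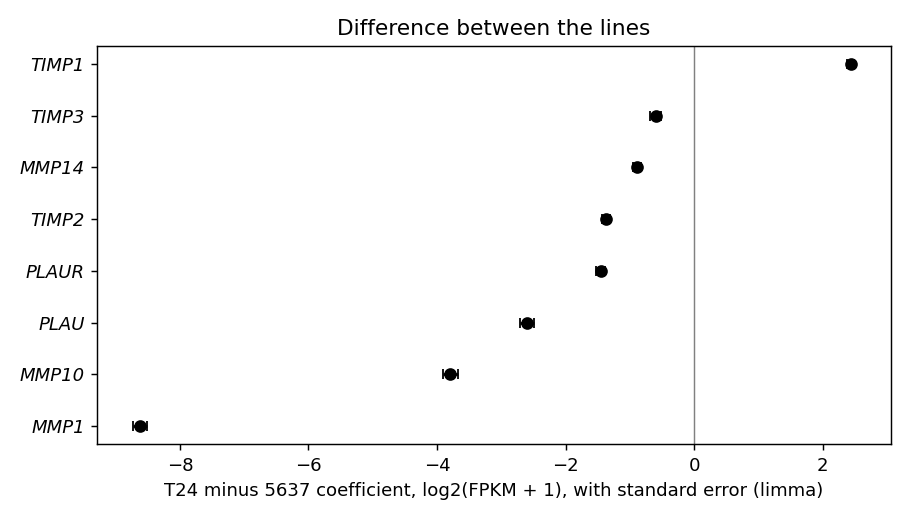
T24 minus 5637 coefficient of limma for the 8 genes that passed the filter, on the log2(FPKM + 1) scale, with its standard error. MMP1 lies farthest from 0 at -8.62, and TIMP1, at 2.44, is the only one on the side of higher levels in T24.

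In T24 the members ran, by mean FPKM, in the order TIMP1, MMP14, PLAUR, TIMP3, TIMP2, PLAU, MMP1, MMP10, MMP3 and MMP9. PLAUR, TIMP3, TIMP2 and PLAU were within 34.2 to 49.2 FPKM in T24, and the libraries of each neighbouring pair among them overlapped, so that neighbours there are not separated. In 5637 the order was MMP1, PLAU, MMP14, PLAUR, TIMP2, TIMP3, MMP10, TIMP1, MMP9 and MMP3. There MMP10 and TIMP1 overlapped, at 22.5 to 32.1 FPKM and 26.2 to 26.5 FPKM.

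Among 11699 protein-coding genes in the fit, those whose 4 centred log2 values lay closest to MMP1 were KRT6A, KRT5 and S100A9, with root mean square differences of 0.17, 0.19 and 0.52. The keratin genes KRT6A and KRT5 were at 432 and 283 FPKM in treated 5637 and at 0.0681 FPKM or less in T24. Closest to PLAU were the EGFR ligand gene AREG (0.094), the phosphatase gene DUSP10 (0.10) and NET1 (0.10), an exchange factor for RhoA. Closest to TIMP1 were PARP10 (0.033), DDX60 (0.037) and IGF2BP1 (0.038). These are likenesses over 4 libraries, in which the difference between the lines weighs most.

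The stretches upstream of the start of MMP10, TIMP3 and PLAU are shown because these genes had the largest relative treatment differences in 5637 or in T24 among members above 1 FPKM. They are RefSeq sequences on GRCh38.p14, 5′ to 3′ on the gene's own strand, cut where an exon of GENCODE 29 begins. Capitals mark the motif TGANTCA, a loose form of the AP-1 motif that allows any base at N and reads the same on both strands.
MMP10, chr11:102780629-102780878, minus strand: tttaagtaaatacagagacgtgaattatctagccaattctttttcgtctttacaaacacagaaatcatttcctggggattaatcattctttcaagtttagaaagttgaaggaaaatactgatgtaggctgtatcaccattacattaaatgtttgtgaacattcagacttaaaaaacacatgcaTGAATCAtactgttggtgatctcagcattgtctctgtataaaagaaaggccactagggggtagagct
TIMP3, chr22:32801455-32801700, plus strand: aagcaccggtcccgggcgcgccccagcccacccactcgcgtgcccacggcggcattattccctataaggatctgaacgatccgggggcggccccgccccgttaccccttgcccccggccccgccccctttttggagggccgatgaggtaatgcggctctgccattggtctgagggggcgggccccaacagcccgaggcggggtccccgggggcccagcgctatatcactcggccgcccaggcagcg
PLAU, second of 2 starts, chr10:73910882-73911103, plus strand: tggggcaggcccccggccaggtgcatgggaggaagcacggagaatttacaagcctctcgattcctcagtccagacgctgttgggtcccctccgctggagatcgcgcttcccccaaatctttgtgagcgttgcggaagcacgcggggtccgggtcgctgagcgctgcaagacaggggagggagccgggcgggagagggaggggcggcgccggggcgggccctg
The MMP10 stretch holds the motif once, with its first base 67 bases before the start. The TIMP3 and PLAU stretches do not hold these letters. Sequences were found for 6 of the 10 genes, in 7 windows of 250 bases before a start, and the motif was in the windows of 2 of them, MMP10 and PLAUR. All 250 bases of the PLAUR window lie in annotated exons of GENCODE 29, so outside exons only the MMP10 window held the motif. Over all 35116 such windows, 6.57% held it. A match of letters is not a measured binding site.

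The other genes of matrix proteolysis were taken from 8 lists with 129 genes, of which 102 were in the limma fit. None of the 102 was called for treatment, as was none of all genes. At an unadjusted p below 0.05 limma had 18 of the 102, 6 higher and 12 lower with treatment, beside 9.52% of all genes, 719 higher and 508 lower. Between the lines, 88 of the 102 were called, 41 higher and 47 lower in T24, beside the 68.9% of all genes. Of the 102, 20 reached 1 FPKM in the libraries of 1 line alone and so passed the filter only through the line where they are high. All 20 were among the called genes, which the filter largely fixed, and 68 of the other 82 were called.

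In the plasminogen activation list, 15 of 16 genes in the fit were called between the lines, 6 higher and 9 lower in T24. SERPINB2, an inhibitor of urokinase, was at 28.4 FPKM in treated and 42.9 FPKM in untreated T24, and at 333 FPKM in treated and 406 FPKM in untreated 5637 (T24 minus 5637 coefficient -3.36, SE 0.084). PLAU was 1.20 times SERPINB2 in treated and 1.097 times in untreated T24, and 0.745 times in treated and 0.615 times in untreated 5637. PLAT, the tissue-type activator, was at 113 FPKM in treated and 114 FPKM in untreated T24, above PLAU there, and at 40.6 FPKM in treated and 50.01 FPKM in untreated 5637, below PLAU. SERPINE2, protease nexin 1, was at 101 FPKM in treated and 92.7 FPKM in untreated T24 and at 47.2 FPKM in treated and 52.6 FPKM in untreated 5637. Plasminogen itself (PLG) was at 0 in all 4 libraries. SERPINB2 was lower with treatment by 0.58 on the log2 scale in T24 and by 0.28 in 5637, with a limma adjusted p of 0.47. F3, tissue factor, was at 22.8 FPKM in treated and 45.2 FPKM in untreated T24 (-0.96) and at 65.7 FPKM in treated and 58.3 FPKM in untreated 5637 (0.17). ST14, matriptase, which can activate urokinase, had a coefficient of -5.43 between the lines. SERPINI1 differed by 0.40 in T24, at 1.33 FPKM in treated and 0.764 FPKM in untreated cells, near the filter, and was not in the limma fit. ST14 and TMPRSS2 passed the filter only through 5637, so their calls between the lines were largely fixed by the filter.

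Among the other metalloproteinases, 7 of 18 were in the fit, and all 7 were called between the lines, 3 higher and 4 lower in T24. MMP13 and MMP24 passed the filter only through T24 and MMP28 only through 5637, so the calls of these 3 were largely fixed by the filter. MMP2 had the lowest coefficient at -4.02 and MMP13 the highest at 1.64. MMP15, a second membrane-bound metalloproteinase, was at 3.30 FPKM in treated and 2.36 FPKM in untreated T24 (0.36) and at 5.61 FPKM in treated and 3.70 FPKM in untreated 5637 (0.49), and was the only one of them at an unadjusted p below 0.05. MMP16 and MMP28 were lower in treated 5637, by 0.41 and 0.40, and MMP17 differed by -0.10 in T24. Among the other regulators of metalloproteinases, THBS1, the matricellular protein thrombospondin-1, was at 132 FPKM in treated and 252 FPKM in untreated T24 (-0.93) and at 357 FPKM in treated and 358 FPKM in untreated 5637 (-0.01). LRP1, an endocytic receptor for proteinase and inhibitor complexes, differed by 0.28 in T24 and by -0.36 in 5637, and RECK, a membrane-anchored inhibitor, by 0.18 and 0.20.

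Of the receptor partners, 10 of 11 in the fit were called between the lines, 4 higher and 6 lower in T24. CAV1 was lower by 0.42 in treated T24 and LYPD3, a relative of PLAUR, by 0.45, and LYPD3 was lower by 0.54 in treated 5637. ITGB6 and ITGB3, integrin subunits, had the outermost coefficients between the lines, at -3.15 and 2.41. ITGB6 passed the filter only through 5637 and ITGB3 only through T24, so both calls were largely fixed by the filter. Of the ADAM and ADAMTS proteases, 10 of 13 were called between the lines, 5 in each direction, with ADAM8 at -3.43 and ADAM12 at 3.998. The filter largely fixed the calls of ADAM12 and ADAMTS5, which passed it only through T24, and of ADAMTS9, only through 5637. ADAM19 was at 24.8 FPKM in treated and 37.2 FPKM in untreated 5637 (-0.56), and ADAMTS6 at 2.96 FPKM in treated and 4.64 FPKM in untreated T24 (-0.51).

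Of the matrix substrates, 15 of 16 were called between the lines, 8 higher and 7 lower in T24, from LAMA3 at -6.97 to VCAN at 2.93. COL1A1 and COL17A1 passed the filter only through 5637, so their calls were largely fixed by the filter. LAMB3, a laminin-332 chain, was at 46.8 FPKM in treated and 71.3 FPKM in untreated T24 (-0.60), and TNC, tenascin-C, at 88.6 FPKM in treated and 115 FPKM in untreated 5637 (-0.37). The median treatment difference of the substrates was -0.08 in T24 and -0.14 in 5637. Of the cathepsins, cystatins, lysyl oxidases and heparanase, 11 of 13 were called, 4 higher and 7 lower in T24, from CST6 at -3.95 to LOXL2 at 1.54. CTSK, CTSS, HPSE, CST6 and CSTA passed the filter only through 5637, so the calls of these 5 were largely fixed by it. LOX and CTSD were lower by 0.44 and 0.37 in treated 5637, and CTSB was higher by 0.21 in treated T24.

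Of the AP-1, ETS, RUNX and NF-kB factors, all 17 were in the fit, and 14 were called between the lines, 8 higher and 6 lower in T24. FOSB passed the filter only through T24, so its call between the lines was largely fixed by the filter. For treatment, 8 of the 17 were at an unadjusted limma p below 0.05 and none at an adjusted p below 0.05, beside 9.52% of all genes at the unadjusted level. Of those 8, 5 were higher, FOS, FOSB, JUN, JUND and ATF3, and 3 were lower, FOSL1, ETS1 and ELK3. FOSL1 was at 189 FPKM in treated and 254 FPKM in untreated T24 (-0.42) and ETS1 at 45.8 FPKM in treated and 64.6 FPKM in untreated T24 (-0.49). FOS was at 2.89 FPKM in treated and 1.57 FPKM in untreated T24 (0.60), and ATF3 at 3.80 FPKM in treated and 1.81 FPKM in untreated 5637 (0.77). ETV4 and ETV5, related ETS factors, differed between the lines in opposite directions, at -2.47 and 2.74.

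**Figure D5:**
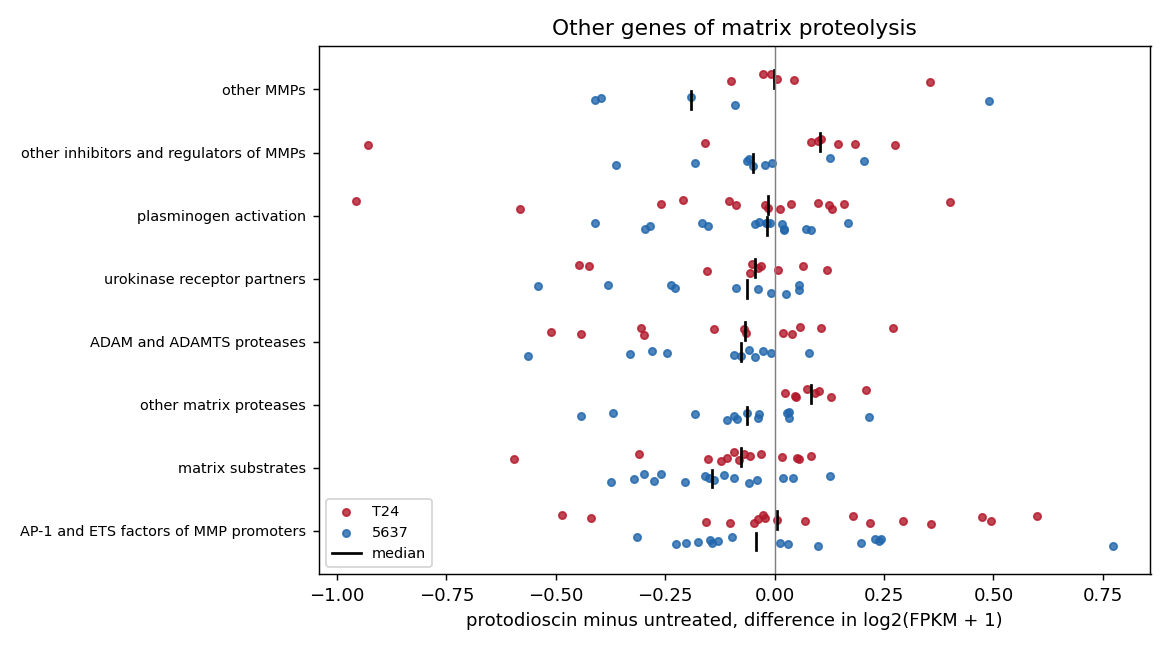
Protodioscin minus untreated difference in log2(FPKM + 1) of the genes of 8 lists with 1 FPKM or more in either library of a line, with 1 point per gene, T24 above 5637 in each list, and the median as a bar. The medians lie between -0.19 and 0.10, and THBS1 and F3 in T24 are the points farthest from 0.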

How the data were processed

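The authors deposited gene-level FPKM for the 4 libraries. Per the labels' protocols, the kit was TruSeq RNA v2, which does not mark strand, so reads of overlapping genes on opposite strands are not separated. The submitters' processing notes name the tools Trimmomatic, HISAT2 and StringTie and the build GRCh38, with no version, setting or annotation release. Read totals are unknown, and the value of 1 read came from the spacing of the lowest FPKM of genes with 1 annotated transcript, so counting intervals were given for MMP1, MMP9 and TIMP3. These intervals take a larger variance than independent reads in these numbers would give, and so are wider than plain counting error.

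Values were analysed as log2(FPKM + 1), which understates the change of low genes, with Python 3.11.15 and pandas 2.3.3. Within a line, a gene was compared at 1 FPKM or more in either library. Treatment and line effects were tested with limma 3.58.1 (R 4.3.3, trended prior variance, Benjamini-Hochberg adjustment over all genes tested). The fit was tested on simulated data with noise drawn from the fitted prior. Each simulated set held 50 treatment-changed genes at each of 0.5, 1, 2 and 4 on the log2 scale. In that mix the fit recovered 34.2% of treatment effects of 0.5 and 93.6% of those of 1. Most effects of 0.5 were thus missed. Benjamini-Hochberg adjustment is less strict when many large effects are present. The data had no called treatment genes, so these shares may overstate what the fit could find there. Coordinates and exon overlap (bedtools 2.31.1) came from GENCODE 29. The members and lists were chosen with earlier results of these data known. Named from the lists were SERPINE2, SERPINB2 and PLAT, and genes among the 2 largest treatment differences per direction and line or with the outermost line coefficient; those at an unadjusted p below 0.05 (FOSB, JUN, JUND, ELK3), and PLG, were chosen after their values were seen. Of the genes the rule names, 1 is not reported here. Alternatives were other pseudocounts, filters and scalings, a fit without exon-sharing genes and one without the cell line term.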

Additional observations from a re-analysis of the deposited data

Results flagged for a closer look

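For 5 of the 8 genes compared in each line, the treated minus untreated difference had opposite signs in T24 and 5637, as it had for 41.0% of the 11417 genes compared in both lines. With 1 library per group, the difference between the lines' responses was not tested. The T24 difference minus the 5637 difference, on the log2(FPKM + 1) scale, was 0.45 for MMP1, 0.12 for MMP14, 0.069 for TIMP1, 0.10 for TIMP2 and -0.17 for PLAUR. For MMP1, the counting interval in T24 included 0. For PLAUR, the sign in 5637 turned under TPM and median-ratio scaling.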

How the results depend on the processing

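The number of members called, 8 between the lines and 0 for treatment, was the same under each alternative, except that 10 were called between the lines with no filter, where MMP3 and MMP9 were added, and 7 without exon-sharing genes, where TIMP2 is left out. The limma treatment effect gave 2 calls in place of 0 with a pseudocount of 0.1 and 2 without exon-sharing genes, none of them a member; the cause was not tested. The share of genes called between the lines was 29.5% with no filter, beside 68.9%. PLAUR, the 1 member above 0 in 5637, left 0 above with TPM scaling and 0 with median-ratio scaling. Of 286 values of single members under an alternative, 280 were counted as the same. For the 8 genes in the fit, these kept their side of the threshold or moved by less than the standard error of the treatment effect. MMP3 and MMP9 have no standard error in the main fit. With no filter that of MMP3 was 0.047, and MMP3 in 5637 with TPM scaling, counted as the same, was at -0.11 beside -0.04. The other 6 were counted as moved: MMP3 and MMP9 in 5637 and MMP9 in T24 with a pseudocount of 0.1, MMP9 in 5637 with TPM scaling, and TIMP1 and TIMP2 in 5637 with median-ratio scaling. MMP10 in 5637 passed a difference of -0.5 under 4 alternatives, at -0.51 to -0.56. The cell line term of the fit pairs the treated with the untreated library of each line; without it limma called 0 genes for treatment, and 9 genes were at an unadjusted p below 0.05, beside 1227 with it. The labels give no replicate numbers, so no other pairing was tried. With 1 library per group, leaving out a library leaves no residual degree of freedom.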
